A study of Mus musculus with 4 samples.

Results

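The tricarboxylic acid (TCA) cycle and the routes by which carbon enters it were followed through 32 genes, listed by function and found by symbol in the tables: the mitochondrial pyruvate carrier, the pyruvate dehydrogenase complex, pyruvate carboxylase, the cycle enzymes with their cytosolic counterparts, and the enzymes that link the cycle to malate, citrate, glutamate and aspartate. All 32 had a row in each of the 4 tables, among 19555 rows. The cells were C57BL/6 CD4+ T cells taken naive from spleen and lymph nodes and held in culture for 3 days with IL-6 and TGF-β1, a cytokine mix that turns them into T helper 17 (Th17) cells. The groups were wild type (WT) at 37 °C, WT at 39.5 °C, Smad4 KO at 37 °C and Smad4 KO at 39.5 °C, with 1 library each, and the higher temperature models fever. Smad4 encodes the common SMAD, which joins the receptor-phosphorylated SMADs downstream of TGF-β. The sources used here do not give how Smad4 was deleted, in which cells, or whether a library pooled animals.

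In the TCA cycle, acetyl-CoA joins oxaloacetate to form citrate, and successive oxidations return the carbon skeleton to oxaloacetate while reducing NAD+ and FAD for the respiratory chain. Pyruvate reaches the matrix through a carrier made of MPC1 and MPC2, and there becomes acetyl-CoA through pyruvate dehydrogenase or oxaloacetate through pyruvate carboxylase, while glutamine enters as 2-oxoglutarate. Activated T cells also draw citrate and aspartate out of the cycle for lipid and nucleotide synthesis, which makes refilling (anaplerotic) reactions part of the pathway in these cells.

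Levels are RPKM, read counts divided by exon length and by library size, so they can be compared between genes, and each stands for a single library. Where 2 levels or 2 temperature-matched ratios follow each other for a genotype, 37 °C comes first; where 2 temperature ratios do, WT comes first. Ratios are quotients of RPKM with exact Clopper-Pearson 95% intervals from the whole reads behind the values; these cover counting error only and say nothing of the spread between cultures. The library sizes behind the RPKM values ran from 17639131 to 19308699, and a member had between 44 and 12777 reads in a library. These sizes were recovered from the values and differed from the recovered read totals. In WT they were 18216613 and 19308699, against 18050832 and 18255441 reads. With the KO label they were 17639131 and 18410930, against 18476262 and 18476668 reads. The sources used here do not say whether sizes were scaled before division, and ratios between libraries carry any such scaling. Smad4 stood at 14.0 and 14.2 RPKM (WT), then 20.7 and 21.3 RPKM in the pair labelled Smad4 KO (limma adjusted p = 0.0454 in limma). The targeted gene was thus higher where the label says knockout. A gene total does not reveal a lost exon, so every genotype direction given here is that of the label. T cell markers summed to between 1175 and 1347 RPKM (7 of 7 genes with a row, none at 0) and Th17 markers to between 264 and 2101 RPKM (5 of 5, none at 0), highest in WT at 39.5 °C and lowest in the KO-labelled library at 37 °C; their part in any result below was not tested. For other cells, 1 of 5 B cell markers had a row (at most 0.485 RPKM), as did 1 of 5 CD8 and NK markers (Cd8b1, at most 4.01 RPKM), 3 of 6 myeloid markers (summing to at most 1.54 RPKM) and 1 of 5 erythroid and platelet markers (at most 0.401 RPKM), and the markers with no row were not analysed here. In bulk RNA, fewer cells of a kind and less RNA per cell cannot be told apart.

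Together the 32 genes summed to 1089 RPKM in WT at 37 °C and 1061 RPKM in WT at 39.5 °C, against 1205 and 1126 RPKM with the KO label, which was between 0.214% and 0.222% of all RPKM in a library. The share of the 32 genes in total RPKM thus varied little between libraries. Without Pcx and Me2, the other 30 made up 0.204% and 0.211% in WT, and 0.189% and 0.195% with the KO label. In RPKM those 30 summed to 1034 and 1006 in WT, and 1053 and 1028 with the KO label. The most abundant members by mean were Acly, the ATP-citrate lyase that turns exported citrate into cytosolic acetyl-CoA (116 RPKM), the mitochondrial malate dehydrogenase Mdh2 (106), the citrate synthase Cs (73.9), the glutamate dehydrogenase Glud1 (70.1) and the mitochondrial malic enzyme Me2 (68.9). The least abundant were the cytosolic isocitrate dehydrogenase Idh1 (1.24 RPKM), the pyruvate dehydrogenase phosphatase Pdp1 (1.53), Mpc2 (2.20), and Sucla2 and Suclg2 (4.45 and 4.67), the alternative β subunits of succinyl-CoA synthetase. Over the 4 libraries, 23 members kept a highest value less than 1.5 times their lowest. The share of all rows within that range was not computed, so this count is a description only. Dlst, the E2 subunit of 2-oxoglutarate dehydrogenase, had the flattest profile of the members (19.9 to 20.4 RPKM). The widest range, 8.79-fold, belonged to Pcx, followed by Me2 at 2.32-fold and Idh1 at 1.99-fold. Acly, at the head of the list, stood at 117 and 125 RPKM for WT, 114 and 108 RPKM for KO-labelled cells.

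**Figure D1:**
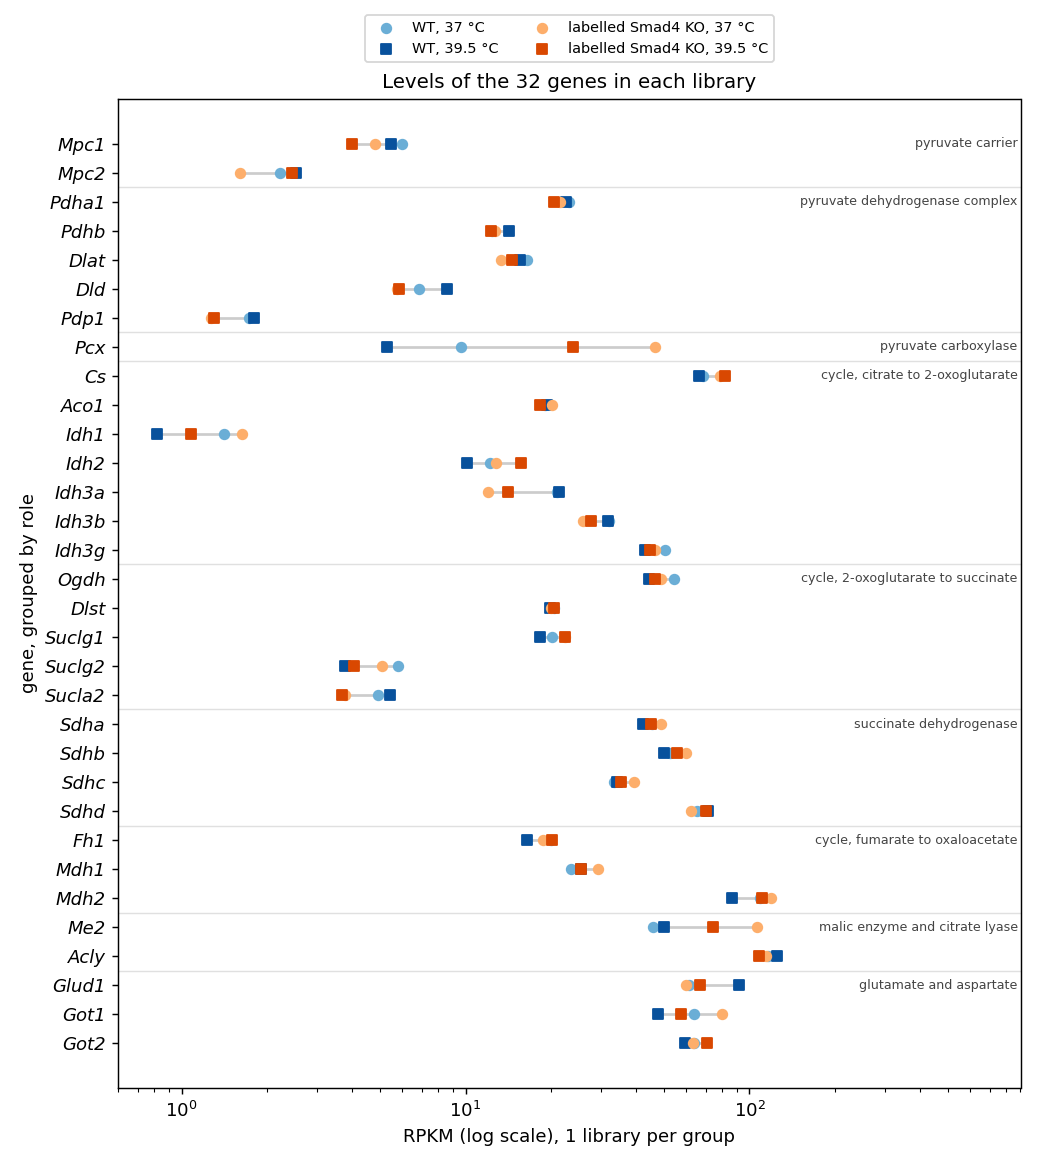
RPKM (log scale) of the 32 genes, grouped by role, with 1 symbol per library and a line from the lowest to the highest value. Most genes kept their 4 symbols close together, while Pcx spread from 5.31 to 46.6 RPKM.

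Among the 32 genes, Pcx and Me2 rose and Idh3a fell with the KO label, and the other 29 did not pass (lowest limma adjusted p = 0.105). The genotype label was compared within an additive limma fit of genotype and temperature over the 13715 rows averaging 1 RPKM or more, on log2(RPKM + 1). All 32 members entered it, and every adjusted p is Benjamini-Hochberg adjusted over those rows. Thus 3 of 32 members were called (9.38%) where the share of all tested rows was 13.3% (8.57% higher, 4.7% lower), so the members' share of calls was not above the background. An unadjusted limma p under 0.05 was found for 5 of 32 members and for 4748 of the 13715 rows, a lower share among the members. The median absolute log2 ratio of the label was 0.157 for members and 0.287 for all rows at 37 °C, and 0.208 and 0.263 at 39.5 °C. With 1 residual degree of freedom, the interaction of genotype and temperature, the test measures a shift against that interaction and a trend over all genes, not against separate animals. When rows averaging under 1 RPKM were kept, 0 of the 19555 rows passed for genotype in limma (5396 had an unadjusted p under 0.05), and the limma adjusted p of Pcx, Me2 and Idh3a became 0.0546, 0.0912 and 0.0784.

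Pcx encodes pyruvate carboxylase, the mitochondrial enzyme that makes oxaloacetate from pyruvate and so refills the cycle (chromosome 19, 4510472 to 4621752, plus strand of GRCm38, in GENCODE vM21). It measured 9.62 RPKM in WT at 37 °C and 5.31 RPKM in WT at 39.5 °C, against 46.6 and 23.9 RPKM in the KO-labelled pair. Both KO-labelled values lay above both WT values, and in each genotype the 39.5 °C value was the lower one. The ratio of the KO-labelled library to WT was 4.84 (4.49 to 5.23) at 37 °C and 4.50 (4.07 to 4.99) at 39.5 °C (log2 2.07 ± 0.13 SE, adjusted p = 0.00622 in limma). In order of level among the 32 genes Pcx went from rank 25 and 28 in WT to rank 12 and 16 in the KO-labelled pair.

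Of the 3 members that passed for genotype, Pcx is the one whose start regions are printed. RefSeq's promoter table (GRCm38.p6) holds 2 start sites for Pcx, and both windows of 250 bases before and 50 after the start are shown, 5′ to 3′ on the plus strand, because gene totals do not tell which start was used. Capitals mark matches, on either strand, to ACGTG, the core bound by hypoxia-inducible and E-box factors, and to CAGAC, the core bound by SMAD proteins.
Pcx upstream start, chr19:4510222-4510521: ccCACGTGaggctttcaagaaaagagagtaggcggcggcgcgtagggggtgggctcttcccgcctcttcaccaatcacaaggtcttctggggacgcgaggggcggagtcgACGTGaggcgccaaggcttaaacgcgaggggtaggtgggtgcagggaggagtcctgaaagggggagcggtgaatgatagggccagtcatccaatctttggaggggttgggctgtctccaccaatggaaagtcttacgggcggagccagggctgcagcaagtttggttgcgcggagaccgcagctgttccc
Pcx downstream start, chr19:4594069-4594368: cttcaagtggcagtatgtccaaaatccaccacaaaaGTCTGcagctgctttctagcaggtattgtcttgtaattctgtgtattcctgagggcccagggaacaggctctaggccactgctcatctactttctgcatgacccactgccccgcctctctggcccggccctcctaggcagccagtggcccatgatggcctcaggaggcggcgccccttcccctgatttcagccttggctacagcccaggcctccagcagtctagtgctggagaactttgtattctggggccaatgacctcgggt
The upstream window held 3 ACGTG matches, 2 of them overlapping in a single palindrome CACGTG, and 0 of CAGAC, with 61.7% G and C. The downstream window held 0 of ACGTG and 1 of CAGAC, with 57% G and C. Of 32851 windows in the table, 19.6% held ACGTG and 49.6% held CAGAC on either strand; of 36 windows of the 28 members in the table (all but Idh3a, Me2, Pdp1 and Sdhc), 12 held each. Of the member windows with ACGTG, 6 were alternative starts of Ogdh. The motif of NRF1, searched as GCGC and again GCGC with any 2 bases between, and the ETS core CCGGAAG, both read on both strands, were in 4 and 7 member windows, against 6.23% and 8.86% of all windows, and in neither Pcx window. These matches describe letters in a window and are not binding sites.

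Me2, the mitochondrial NAD-dependent malic enzyme that converts malate to pyruvate, was the other member that rose (chromosome 18, 73769903 to 73815449, minus strand of GRCm38). Me2 measured 45.7 RPKM in WT at 37 °C and 49.9 RPKM in WT at 39.5 °C, against 106 and 74.2 RPKM in the KO-labelled pair, so both KO-labelled values were above both WT values. The ratio to WT was 2.32 (2.20 to 2.44) at 37 °C and 1.49 (1.41 to 1.57) at 39.5 °C (log2 0.88 ± 0.18 SE, adjusted p = 0.0364 in limma). Me2 is a neighbour of the targeted gene: the genes lie 66122 bases apart, with Elac1 between them. Elac1 was at 2.36 and 2.29 RPKM for WT, 3.52 and 2.33 RPKM for KO-labelled cells, a ratio to WT of 1.49 (1.25 to 1.78) at 37 °C and 1.02 (0.837 to 1.23) at 39.5 °C, and did not pass (limma adjusted p = 0.376). On the other side of Smad4, Mex3c had ratios of 0.700 (0.614 to 0.796) and 0.663 (0.583 to 0.753) (limma adjusted p = 0.0601). Smad4 itself had ratios of 1.48 (1.36 to 1.60) and 1.51 (1.39 to 1.63). At 37 °C Smad4, Elac1 and Me2 were thus above 1 beyond counting error and Mex3c below it. At 39.5 °C this held for all of them but Elac1. These neighbours were looked at after Me2 had been seen, and the part of the shared locus in the Me2 difference was not tested.

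Idh3a encodes the catalytic α subunit of the NAD-dependent isocitrate dehydrogenase, the isoform that drives the cycle from isocitrate to 2-oxoglutarate (chromosome 9, 54586334 to 54604661, plus strand of GRCm38). It fell with the KO label, from 20.9 and 21.3 RPKM in WT to 12.0 and 14.1 RPKM in the KO-labelled libraries at 37 and 39.5 °C, with no overlap. The ratios were 0.571 (0.530 to 0.616) and 0.661 (0.616 to 0.708) (log2 −0.66 ± 0.13 SE, adjusted p = 0.0337 in limma). The regulatory subunits of the same enzyme did not pass: Idh3b stood at 32.02 and 31.7 RPKM for WT, 25.98 and 27.6 RPKM for KO-labelled cells (limma adjusted p = 0.219), and Idh3g at 50.6 and 42.8 RPKM for WT, 46.5 and 44.8 RPKM for KO-labelled cells (limma adjusted p = 0.891). The subunit genes thus had unlike ratios in the same libraries, lowest for the catalytic subunit; the difference between subunits was not tested.

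**Figure D2:**
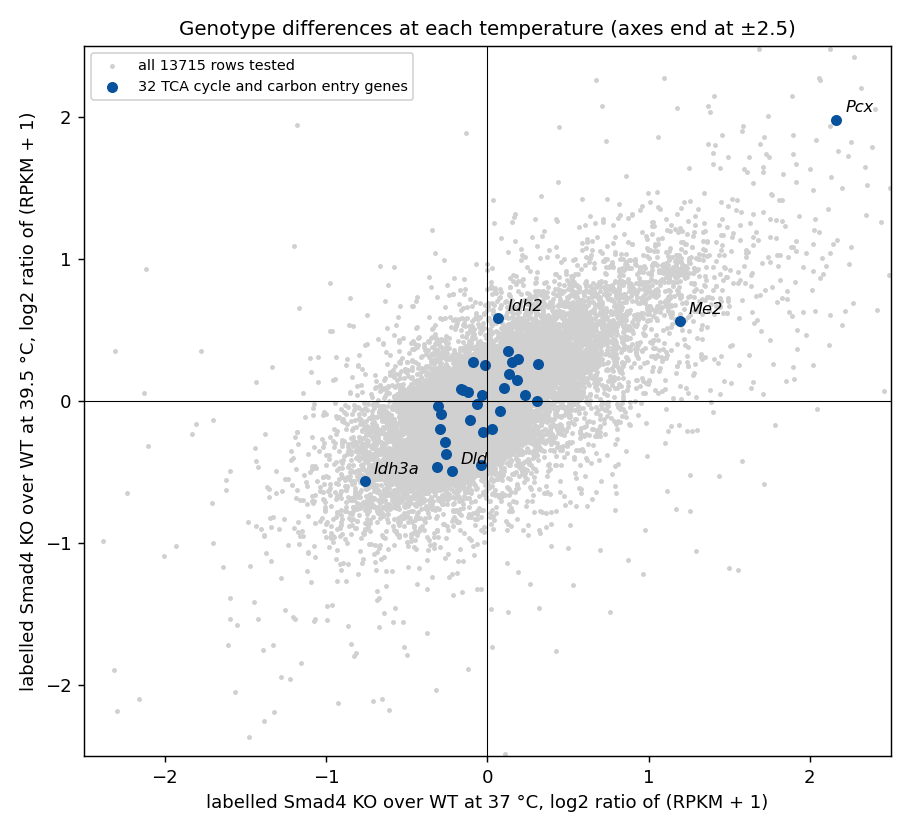
Log2 ratio of (RPKM + 1) of the KO-labelled library over WT at 37 °C (x) and at 39.5 °C (y) for all rows tested (grey) and the 32 genes (blue). Pcx stands to the upper right, Me2 to the right and Idh3a to the left of the remaining members.

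By role, all 7 genes of the pyruvate carrier and of pyruvate dehydrogenase had a fitted genotype effect below 0 in limma, and none passed. The median fitted effect of all rows was −0.011, so effects below 0 were common. Each alternative scaling lowered the medians of all rows for the label. These effects therefore stayed below 0 under them, which could not test the direction. Mpc1, with MPC2 the carrier of pyruvate across the inner membrane, stood at 5.96 and 5.45 RPKM for WT, 4.82 and 3.99 RPKM for KO-labelled cells (limma adjusted p = 0.154) and Mpc2 at 2.22 and 2.53 RPKM for WT, 1.61 and 2.45 RPKM for KO-labelled cells (limma adjusted p = 0.463). For the carrier the ratio of the KO-labelled library to WT was 0.809 (0.661 to 0.989) and 0.733 (0.592 to 0.905) for Mpc1, and 0.723 (0.603 to 0.866) and 0.967 (0.830 to 1.13) for Mpc2, so that only Mpc1 was below 1 beyond counting error at both temperatures. The 5 genes of pyruvate dehydrogenase and its phosphatase had a median log2 ratio of −0.22 at 37 °C and −0.20 at 39.5 °C, against −0.012 and 0.00265 over all rows. Dld, the E3 subunit that pyruvate dehydrogenase shares with 2-oxoglutarate dehydrogenase, had the lowest of these at 39.5 °C, a ratio of 0.676 (0.594 to 0.769) (limma adjusted p = 0.136), from levels of 6.87 and 8.59 RPKM for WT, 5.76 and 5.81 RPKM for KO-labelled cells. Pdha1, the catalytic E1 α subunit, was at 23.2 and 22.6 RPKM for WT, 21.5 and 20.5 RPKM for KO-labelled cells, with ratios to WT of 0.926 (0.861 to 0.996) and 0.906 (0.843 to 0.973). Pdhb, its β partner, was at 12.4 and 14.3 RPKM for WT, 12.7 and 12.3 RPKM for KO-labelled cells, with ratios of 1.02 (0.930 to 1.13) and 0.863 (0.788 to 0.944). The E1 genes thus kept to a narrow range, and Dlat, the E2 core, ran from 13.4 to 16.5 RPKM. Pdp1, which reactivates the complex by removing phosphate, stood at 1.73 and 1.80 RPKM for WT, 1.27 and 1.30 RPKM for KO-labelled cells, with ratios of 0.735 (0.563 to 0.955) and 0.721 (0.559 to 0.928).

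Among the cycle enzymes, Cs stood at 68.6 and 66.5 RPKM for WT, 78.5 and 82.0 RPKM for KO-labelled cells, so both KO-labelled values were the higher ones, by ratios of 1.14 (1.11 to 1.18) and 1.23 (1.20 to 1.27) (limma adjusted p = 0.201). Succinyl-CoA synthetase has a shared α subunit and a choice of β subunits, specific for ADP (Sucla2) or GDP (Suclg2). The α subunit gene Suclg1 was at 20.1 and 18.3 RPKM for WT, 22.5 and 22.4 RPKM for KO-labelled cells (limma adjusted p = 0.275). Sucla2 was at 4.93 and 5.43 RPKM for WT, 3.77 and 3.66 RPKM for KO-labelled cells, with the smallest limma adjusted p (0.105) among the members that missed the threshold; its ratios were 0.764 (0.650 to 0.899) and 0.675 (0.577 to 0.789). Suclg2, described with temperature, had ratios to WT of 0.874 (0.765 to 0.998) and 1.07 (0.921 to 1.25). Ogdh, the E1 subunit of 2-oxoglutarate dehydrogenase, was at 54.2 and 44.1 RPKM for WT, 48.7 and 46.6 RPKM for KO-labelled cells. The 4 succinate dehydrogenase genes, which serve the cycle and the respiratory chain as complex II, had median log2 ratios of 0.15 and 0.069, and none passed. When each library was brought to an equal RPKM total, the succinate dehydrogenase medians became 0.012 and −0.069, and the medians of all rows −0.13 and −0.12. Mdh2 was at 109 and 86.9 RPKM for WT, 119 and 111 RPKM for KO-labelled cells (limma adjusted p = 0.227), and the fumarase gene Fh1 at 20.02 and 16.5 RPKM for WT, 18.8 and 20.2 RPKM for KO-labelled cells. These enzymes carry out the last steps of the cycle, from fumarate to malate to oxaloacetate. The ratio of the KO-labelled library to WT was 1.09 (1.06 to 1.13) and 1.28 (1.24 to 1.32) for Mdh2, and 1.25 (1.15 to 1.35) and 1.002 (0.926 to 1.09) for the cytosolic Mdh1, which works in the malate-aspartate shuttle.

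Among succinate dehydrogenase genes, Sdha stood at 45.3 and 42.3 RPKM for WT, 48.8 and 45.1 RPKM for KO-labelled cells, and Sdhb at 52.5 and 49.99 RPKM for WT, 59.9 and 55.4 RPKM for KO-labelled cells. Sdhc stood at 33.4 and 34.1 RPKM for WT, 39.4 and 35.3 RPKM for KO-labelled cells, and Sdhd at 65.4 and 71.6 RPKM for WT, 62.4 and 70.6 RPKM for KO-labelled cells. For Sdhb and Sdhc both KO-labelled values were above both WT values, while for Sdha and Sdhd the genotypes overlapped, and none of the 4 passed in limma. The share of all rows without overlap was not computed. The order also depended on scaling: with equal RPKM totals, 1 of the 4 genes was higher with the KO label at 39.5 °C, in place of 3. For the enzymes that draw on or feed the cycle, the ratio of the KO-labelled library to WT was 0.981 (0.956 to 1.01) and 0.859 (0.837 to 0.881) for Acly, 1.25 (1.19 to 1.31) and 1.20 (1.14 to 1.27) for Got1, and 0.989 (0.953 to 1.03) and 1.20 (1.15 to 1.24) for Got2. Glud1 had 0.973 (0.934 to 1.01) at 37 °C and 0.729 (0.703 to 0.755) at 39.5 °C. Got1 was above 1 at both temperatures beyond counting error, while Acly and Glud1 lay below 1 and Got2 above 1 beyond it at 39.5 °C alone, and none passed in limma.

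In the size rule, which carries no p, at least 1.5-fold was asked of a pair of libraries on the log2(RPKM + 1) scale. At 37 °C, 2 members were that much higher with the KO label (Pcx and Me2) and 1 lower (Idh3a), where 11.5% of all rows were higher and 7.35% lower. At 39.5 °C, 2 were higher (Pcx and Idh2) and 0 lower, where 9.06% and 6.38% of all rows were. At 2-fold, Pcx and Me2 were higher at 37 °C and Pcx alone at 39.5 °C, where 4.7% and 2.3% of all rows were. Idh2, the NADP-dependent mitochondrial isocitrate dehydrogenase, only just met the rule, at a log2 difference of 0.586 against a limit of 0.585, while Idh3a at 39.5 °C (−0.565) lay just outside it. Idh2 was at 12.2 and 10.1 RPKM for WT, 12.8 and 15.6 RPKM for KO-labelled cells (limma adjusted p = 0.220 for genotype). Its ratio to WT was 1.05 (0.936 to 1.18) at 37 °C and 1.55 (1.38 to 1.74) at 39.5 °C. The lowest and the highest value of Idh2 were those of WT and of the KO-labelled library at 39.5 °C. The 32 genes had a median log2 ratio of −0.030 at 37 °C and 0.043 at 39.5 °C, close to all rows.

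**Figure D3:**
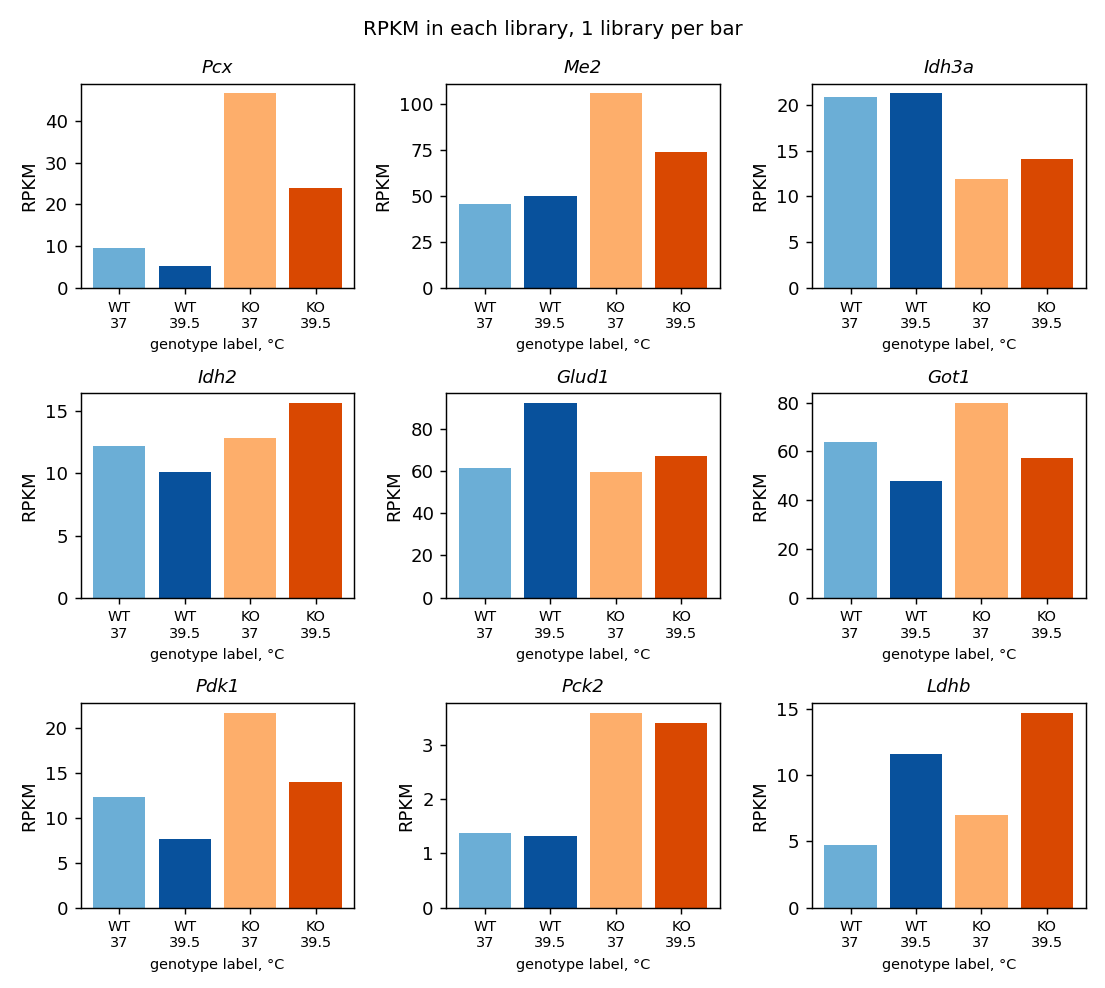
RPKM in each of the 4 libraries for 6 members and for Pdk1, Pck2 and Ldhb, 1 bar per library. Pcx, Me2, Pdk1 and Pck2 are higher, and Idh3a lower, in both KO-labelled libraries than in both WT libraries.

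At 39.5 °C, Pcx, Got1, Suclg2 and Idh1 had lower values than at 37 °C in both genotypes and Glud1 had higher ones, and none of these differences passed. For temperature, 0 of 32 members passed in limma, where 0.0219% of all rows did (0.0146% higher, 0.00729% lower); 4 of 32 members had an unadjusted p under 0.05, as had 1914 of the 13715 rows, so that share too lay near the background. The 5 genes just named had the smallest p. The median log2 ratio of the members was −0.041 in WT and −0.046 in the KO-labelled pair, beside −0.023 and −0.0074 for all rows. At the 1.5-fold rule Pcx alone was lower at 39.5 °C, in WT (2.6% of all rows) and in the KO-labelled pair (3.81%), and 0 members were higher (5.32% and 3.31%).

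Pcx had a ratio of 39.5 to 37 °C of 0.551 (0.491 to 0.618) in WT and 0.512 (0.485 to 0.541) in the KO-labelled pair (log2 −0.84 ± 0.13 SE, adjusted p = 0.105 in limma). The intervals of these ratios overlap, although the levels at 37 °C differed between genotypes. When only rows averaging 5 RPKM or more were tested (8947 rows, 27 members), Pcx passed for temperature (limma adjusted p = 0.0143). Got1, the cytosolic aspartate aminotransferase of the malate-aspartate shuttle, was lower at 39.5 °C in both pairs, by ratios of 0.748 (0.708 to 0.790) and 0.719 (0.684 to 0.756) (log2 −0.44 ± 0.12 SE, adjusted p = 0.215 in limma). Its levels were 63.8 and 47.7 RPKM for WT, 79.7 and 57.4 RPKM for KO-labelled cells, with the 2 libraries at 39.5 °C below the 2 at 37 °C. Glud1, which feeds glutamate into the cycle as 2-oxoglutarate, was at 61.4 and 92.1 RPKM for WT, 59.8 and 67.1 RPKM for KO-labelled cells. The Glud1 ratio was 1.5 (1.45 to 1.56) in WT and 1.12 (1.08 to 1.17) in the KO-labelled pair (limma adjusted p = 0.350 in limma), and the WT library at 39.5 °C was the one that stood apart.

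Suclg2, the GDP-forming β subunit, was at 5.79 and 3.78 RPKM for WT, 5.06 and 4.05 RPKM for KO-labelled cells, a ratio of 0.652 (0.565 to 0.750) in WT and 0.800 (0.692 to 0.926) in the other pair (limma adjusted p = 0.311). Both 39.5 °C values were below both 37 °C values. Idh1, the NADP-dependent enzyme of the cytosol, was at 1.41 and 0.822 RPKM for WT, 1.64 and 1.08 RPKM for KO-labelled cells, with ratios of 0.585 (0.392 to 0.863) and 0.659 (0.459 to 0.940) (limma adjusted p = 0.365); with 71 and 44 reads in WT its intervals were the widest of the members. The pseudocount of 1 RPKM understates the change of such low genes. Mpc2, also low, had a ratio of 1.52 (1.28 to 1.82) in the KO-labelled pair and 1.14 (0.975 to 1.33) in WT.

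The remaining cycle genes had temperature ratios nearer to 1. Mdh2 had 0.799 (0.772 to 0.827) in WT and 0.936 (0.906 to 0.967) in the KO-labelled pair, and Ogdh 0.814 (0.783 to 0.847) and 0.956 (0.918 to 0.996). Sdhd, a membrane anchor of complex II, was slightly higher at 39.5 °C in both pairs, with ratios of 1.09 (1.02 to 1.17) and 1.13 (1.05 to 1.22), while Sdha, its flavoprotein subunit, was slightly lower, at 0.933 (0.889 to 0.978) and 0.925 (0.882 to 0.970). The iron-sulphur subunit Sdhb had 0.953 (0.897 to 1.01) and 0.926 (0.874 to 0.981), and the other anchor, Sdhc, 1.02 (0.961 to 1.09) and 0.896 (0.844 to 0.951). Aco1, a cytosolic aconitase that also acts as the iron regulatory protein IRP1, ranged from 18.3 to 20.1 RPKM over all libraries.

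**Figure D4:**
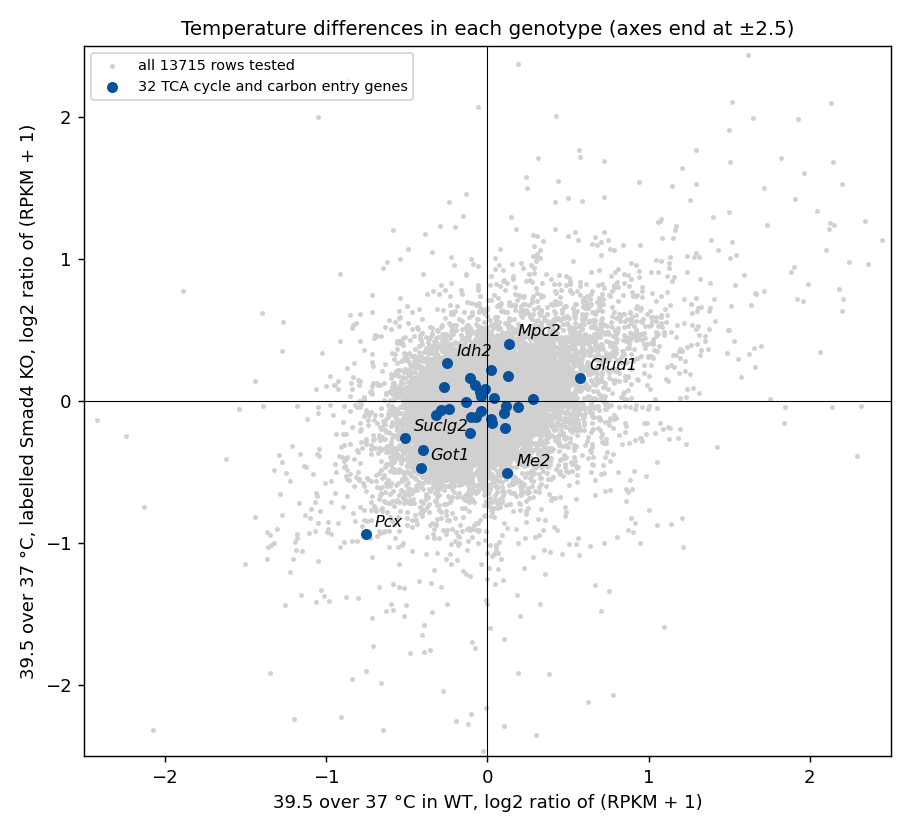
Log2 ratio of (RPKM + 1) of 39.5 over 37 °C in WT (x) and in the KO-labelled pair (y) for all rows tested (grey) and the 32 genes (blue). Pcx and Got1 lie to the lower left, Glud1 to the right, and Me2 well below the horizontal axis.

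The temperature ratios of the genotypes were set beside each other as a difference of log2 ratios, KO-labelled minus WT, for which the design leaves no test. The median difference over the members was 0.017, with 16 above and 16 below 0, beside −0.00283 over all rows. Me2 had the largest difference in size, −0.63: its ratio of 39.5 to 37 °C was 1.09 (1.03 to 1.16) in WT and 0.700 (0.669 to 0.732) in the KO-labelled pair. Idh2 came next with 0.52, from ratios of 0.828 (0.734 to 0.935) and 1.22 (1.09 to 1.36). Glud1 followed with −0.41, and Fh1 with 0.36, at ratios of 0.822 (0.757 to 0.893) in WT and 1.07 (0.989 to 1.16) in the KO-labelled pair. For Me2 and Idh2 the 2 intervals lay on opposite sides of 1. Pcx and Got1 differed little between genotypes in their temperature ratios (−0.18 and −0.057).

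Partner genes were also compared within each library, where both share the same cells and depth. The mitochondrial Mdh2 exceeded the cytosolic Mdh1 by 4.61 (4.33 to 4.92) and 3.40 (3.20 to 3.62) times in WT at 37 and 39.5 °C and by 4.04 (3.81 to 4.28) and 4.34 (4.08 to 4.61) times in the KO-labelled pair, lowest in WT at 39.5 °C. Mdh1 itself was at 23.6 and 25.5 RPKM for WT, 29.4 and 25.6 RPKM for KO-labelled cells. The mitochondrial Got2 and the cytosolic Got1 stood near parity: the ratio of Got2 to Got1 was 1.003 (0.959 to 1.05) at 37 °C and 1.24 (1.18 to 1.30) at 39.5 °C in WT, and 0.794 (0.761 to 0.828) and 1.23 (1.18 to 1.29) in the KO-labelled pair. The ratio was higher at 39.5 °C in both genotypes; Got2 was at 64.0 and 59.2 RPKM for WT, 63.3 and 70.8 RPKM for KO-labelled cells, and GENCODE vM21 lists a pseudogene, Got2-ps1, whose reads the counting could have split from it.

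Idh2 exceeded Idh1 in every library, by 8.66 (6.76 to 11.2) and 12.3 (9.003 to 17.1) times in WT and 7.83 (6.19 to 10.02) and 14.5 (11.02 to 19.4) times in the KO-labelled pair, larger at 39.5 °C in each. The ratio of Suclg2 to Sucla2 was 1.18 (1.02 to 1.35) in WT at 37 °C, 0.695 (0.601 to 0.805) in WT at 39.5 °C, 1.34 (1.15 to 1.57) in the KO-labelled library at 37 °C and 1.11 (0.941 to 1.30) in that at 39.5 °C. In WT the ADP-forming subunit gene was thus the more abundant one at 39.5 °C and the GDP-forming one at 37 °C. Pdhb was below Pdha1 in all libraries, at 0.534 to 0.632 of its level, and Mpc2 below Mpc1, at 0.333 to 0.613. Exon lengths count all annotated exons, so a gene with long rarely used exons is understated in such a ratio, by the same factor in each library.

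**Figure D5:**
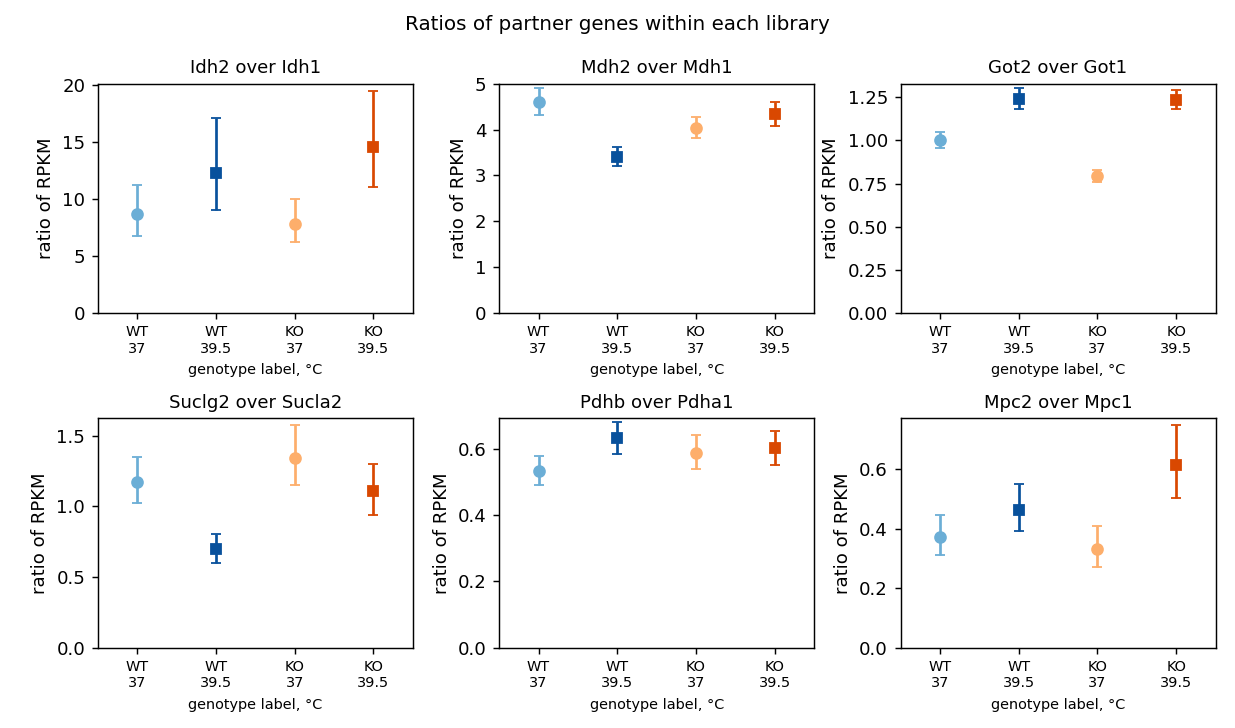
Ratio of RPKM of partner genes within each library, with exact 95% counting intervals (circles 37 °C, squares 39.5 °C; blue WT, orange KO-labelled). Suclg2 to Sucla2 is lowest in WT at 39.5 °C, and Got2 to Got1 is higher at 39.5 than at 37 °C in both genotypes.

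A list of 41 further genes that regulate or border the pathway was read in the same fit; 37 had a row, 30 reached the minimum mean, and Pdk4, Me1, Pck1 and Acod1 were not analysed here. Of the 30, 3 rose with the KO label (Pck2, Pdk1 and Ldha), where 8.57% of all rows were called higher. For temperature 0 passed, where 0.0219% of all rows did. An unadjusted limma p under 0.05 for temperature was found for 4 of the 30 and for 1914 of the 13715 rows. These shares of the list lay near those of all rows. The median log2 ratio of the 30 for the label was −0.11 at 37 °C and 0.093 at 39.5 °C, beside the −0.012 and 0.00265 of all rows. Pck2, the mitochondrial phosphoenolpyruvate carboxykinase that takes oxaloacetate out of the cycle, rose from 1.38 and 1.32 RPKM to 3.59 and 3.41 RPKM (log2 0.94 ± 0.14 SE, adjusted p = 0.0202 in limma). Pdk1, a kinase that inhibits pyruvate dehydrogenase, rose from 12.4 and 7.69 RPKM to 21.7 and 14.0 RPKM (log2 0.78 ± 0.12 SE, adjusted p = 0.0223 in limma), and its ratio of 39.5 to 37 °C was 0.622 (0.577 to 0.670) in WT and 0.644 (0.608 to 0.682) in the KO-labelled pair (limma adjusted p = 0.140). Pdk1 thus had the same order of the 4 libraries as Pcx. So had Pck2, Ldha, D2hgdh, Mrps36, Acss2 and Gpt2 of the list, and Sdhb, Mdh2 and Suclg1 of the members. The order was therefore not particular to Pdk1 and Pcx. The share of all rows with that order was not computed. Ldha, which makes lactate from pyruvate, rose by the same test, from 666 and 573 to 874 and 783 RPKM (log2 0.42 ± 0.096 SE, adjusted p = 0.0472 in limma), a call lost under 5 of 7 alternative settings, and GENCODE vM21 lists pseudogenes, Ldha-ps and Ldha-ps2, whose reads the counting could have split from it.

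Ldhb, the lactate dehydrogenase subunit that favours pyruvate, was the one gene of the list at least 2-fold different in a pair on the log2(RPKM + 1) scale, in WT between temperatures. It was at 4.76 and 11.6 RPKM for WT, 7.01 and 14.7 RPKM for KO-labelled cells, a ratio of plain RPKM of 39.5 to 37 °C of 2.43 (1.99 to 2.99) and 2.10 (1.77 to 2.5) (log2 1.05 ± 0.13 SE, adjusted p = 0.0727 in limma), where 1.46% of all rows were at least 2-fold higher in WT by the rule with the pseudocount.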

How the data were processed

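RNA-seq tables of 4 libraries, 1 per group, were read as deposited; groups come from the titles. The authors deposited RPKM values, per the series' design text in the labels; the submitters' processing notes name edgeR, Subread, featureCounts, Bowtie2 and Trim Galore 0.4.4, and mm10, without roles. Not given in the sources used here: annotation release, strandedness, any gene filter. Bowtie2 places no read across an intron, so junction reads of these multi-exon genes may be undercounted.

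Whole reads were recovered from RPKM, exon length and library size: 30 members gave whole reads in all libraries at the GENCODE vM21 exon length (tolerance 0.01), and Pcx and Me2 at lengths of 4637 and 2455 bases found from the values (tolerance 0.003). Ratios of RPKM have exact Clopper-Pearson intervals given the summed reads. Tests were limma 3.58.1 in R 4.3.3 on log2(RPKM + 1), rows averaging 1 RPKM or more, genotype plus temperature, empirical Bayes with a trend, Benjamini-Hochberg adjustment over 13715 rows, threshold 0.05; the fit was tested on simulated data. No label ties libraries to animals or culture days, so p-values measure only the spread between these libraries. Members, lists and tests were chosen with earlier results of these data known. Named in full were members that passed, that met the 1.5-fold rule in a pair, the 5 highest and 5 lowest by mean, the partner pairs, and the 5 with the smallest temperature p; of the other genes, those that passed or were 2-fold different. The neighbours of Smad4 were named after their values were seen, and some results of the wider list are not reported here. Intervals, motifs and figures used Python 3.11.15, scipy 1.17.1 and matplotlib 3.10.9. The alternatives were a pseudocount of 0.1, no minimum mean or 5 RPKM, 3 other scalings and no variance trend.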

Additional observations from a re-analysis of the deposited data

Results flagged for a closer look

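Because each genotype has a single pair of libraries, a difference in direction between the genotypes could not be tested. In 4 members the counting intervals of the temperature ratios lay on opposite sides of 1 in the 2 genotypes. The share of all rows with such intervals was not computed. By log2 ratio alone, 56.25% of members and 60.5% of all rows tested had the same direction in both genotypes, so opposite directions were common among all rows. Idh2 had a ratio of 39.5 to 37 °C of 0.828 in WT and 1.22 in the KO-labelled pair. Me2 went the other way, at 1.09 in WT and 0.700 in the KO-labelled pair. Acly was at 1.08 and 0.942, and Got2 at 0.925 and 1.12. Between temperatures, Ogdh had a ratio of the KO-labelled library to WT of 0.899 at 37 °C and 1.06 at 39.5 °C, also untested.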

How the results depend on the processing

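The genotype calls of Pcx, Me2 and Idh3a held under 6 of 7 alternatives each, with log2 effects from 1.95 to 2.21, 0.74 to 0.89 and −0.79 to −0.66; with no minimum mean the members called for genotype numbered 0. Calls over all rows for genotype, 1176 higher and 644 lower, became 936 and 1442 with equal RPKM totals and 1054 and 798 with upper quartile scaling. With a minimum mean of 5 RPKM, 1 member was called for temperature, and 290 rows in place of 3. With equal RPKM totals the members' median log2 ratio of the KO label became −0.16 at 37 °C and −0.093 at 39.5 °C, while that of all rows became −0.13 and −0.12. At the 1.5-fold rule, members higher at 39.5 °C in WT numbered 1 with upper quartile scaling and with equal totals (Glud1 lay just under the limit), and members lower in WT numbered 3 with a pseudocount of 0.1. At 39.5 °C, members higher with the KO label numbered 1 with upper quartile scaling, with equal totals and with median centring, and members lower numbered 1 with a pseudocount of 0.1, 1 with upper quartile scaling and 3 with equal totals. None of the 12 single-gene effects recomputed changed direction under an alternative. No paired analysis was possible because each group has 1 library, and leaving out a library leaves no residual degrees of freedom. Depth limits Idh1 most, at 44 to 80 reads.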
